A study of Arabidopsis with 8 samples.

Results

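A total of 200 probes were read well above background in Ler leaves on every array and in Sha leaves on none. They were selected on the deposited detection flags. A probe qualified when Feature Extraction, the software that turns a scanned slide into signals, marked it well above background on all 4 Ler arrays and on 0 of the 4 Sha arrays. Of 43572 probes in all, 213 met this rule, and the 200 with the highest mean level over the Ler arrays were kept. Another 385 probes were detected in Sha only. The 200 probes stood for 189 genes, counted as RefSeq loci or, where no locus matched, as the accession or probe name given on the array. The contrast between Ler and Sha chose these probes, so their levels in the 2 ecotypes are given as a description, with no test.

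Ler and Sha are natural accessions (ecotypes) of Arabidopsis thaliana and were compared as plants that differ in salt tolerance. Seedlings 10 days old went onto MS plates holding 100 mM NaCl or no salt. RNA was taken from leaves after 4 days, pooled from many seedlings of a plate. Each group had 2 arrays, one for each biological replicate, giving Ler salt, Ler control, Sha salt and Sha control, 8 arrays in total. Every slide carried a single ecotype, so slide and ecotype cannot be told apart, whereas within Ler each of the 2 slides held a salt and a control array.

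Natural accessions of a plant species differ in single bases, in small insertions and deletions, and in whole genes that are present in one and lost or rearranged in another. Disease resistance genes of the NLR class, which recognise pathogen proteins, and transposable elements are well known for such variation. An expression array reads each gene through 1 or a few short designed sequences, chosen on a reference genome. For such a probe, a low signal in one accession can come with little RNA or with RNA that the probe matches poorly, and a single probe cannot tell these apart.

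Levels below are log2 signals after subtraction of the 75th percentile of the same array, so that a probe above 0 was brighter than 75% of the probes of its array. Signals of different probes are not set against each other as amounts of RNA. The lowest level that still counted as well above background lay between −7.73 and −6.67 on the Ler arrays and between −8.57 and −7.50 on the Sha arrays. Ler control replicate 1 was the dimmest array, with a 75th percentile 57.9 times its local background, against 82.9 to 136.2 times on the others. All 5 leaf markers checked were detected on all 8 arrays, and so were all 5 root markers. CASP1, a marker of the root endodermis, averaged −0.60 in Ler salt and 1.84 in Ler control leaves. The part of root RNA in the results below was not tested. Of the pollen and seed markers, none was detected on all 8 arrays, while the seed storage protein gene CRU1 averaged −1.30 in Ler salt and −9.10 in Ler control leaves. The salt markers responded, as with RD29B, a gene induced by drought and abscisic acid, at 0.95 in Ler salt against −5.52 in Ler control leaves.

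The 200 probes were mostly dim in Ler. Their mean level over the Ler arrays had a median of −3.76 and a range of −6.06 to 2.40, against a median of −0.96 for all 30883 probes detected on the 4 Ler arrays. A total of 174 lay below that median, and 13 (6.5%) were above 0, against 34.8% of the probes detected in Ler. In Sha the same probes had mean levels between −10.42 and −8.15, with a median of −9.90. As the Sha signals were not well above background, the measured difference of Ler minus Sha, with a median of 5.87 and a range of 2.64 to 12.35, is no measured ratio of RNA. When the median spot signal was corrected with the normexp model in place of the deposited correction, with an offset of 50 on every signal, this median difference was 2.01. A bound was also taken from the lowest signal that was flagged well above background on each Sha array. A Sha signal below it was replaced by it, and a higher one was kept. It is no strict detection limit, as some higher Sha signals were not flagged, such as 2 of those of ECS1 given below. By that bound the probes were at least 3.92-fold to 1418-fold higher in Ler, with a median of 19.8-fold, and 131 of them were at least 10-fold higher.

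The rank limit passed through a dense part of the distribution. The last 5 probes inside it averaged −5.99, −5.99, −6.00, −6.04 and −6.06 over the Ler arrays. The first 5 outside it averaged −6.11, −6.11, −6.12, −6.12 and −6.19. The flag limit likewise had neighbours, with 63 probes detected on all 4 Ler arrays and 1 Sha array, and 43 on 3 Ler arrays and no Sha array. Across the whole array such probes were few, as 98.0% of the probes detected on all 4 Ler arrays were also detected on all 4 Sha arrays and 0.690% were detected in Ler only.

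A signal can be statistically above background without being well above it. On no Sha array did 83 of the 200 probes have even such a signal, 16 had one on all 4, and the rest had one on 1 to 3 Sha arrays. Among the 16 was the probe of ECS1, a gene of a cell wall protein. It read −4.24 and −4.55 in Ler salt and −1.07 and −1.34 in Ler control leaves, and −7.79 and −8.06 in Sha salt and −8.96 and −8.19 in Sha control leaves.

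The brightest probe was that of the array entry NP230017. It read 2.58 and 2.39 in Ler salt and 2.35 and 2.26 in Ler control leaves, against −9.67 and −10.52 in Sha salt and −9.99 and −9.62 in Sha control leaves. It was at least 1418-fold higher in Ler. The second, of the transcript NM_001036503, read 1.35 and 1.34 in Ler salt and 3.005 and 2.95 in Ler control leaves, against −9.35 and −10.55 in Sha salt and −8.77 and −9.90 in Sha control leaves, at least 1205-fold higher in Ler. Neither entry matched a locus in the RefSeq table.

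The fourth was a probe of ABF2 (AT1G45249, also AREB1), a bZIP transcription factor that binds abscisic acid responsive elements and acts in drought and salt signalling. It read 1.97 and 2.16 in Ler salt and 0.53 and 0.61 in Ler control leaves. In Sha the same probe read −9.67 and −10.58 with salt and −10.03 and −10.71 without, with no signal significant above background on any of the 4 arrays. The bound was at least 671-fold. A second probe of ABF2 was detected in both ecotypes and is described below.

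SEH (AT2G26740), a soluble epoxide hydrolase, was among the 12 brightest with 0.89 and 0.90 in Ler salt and 0.17 and 0.22 in Ler control leaves. Its Sha signals were −9.37 and −10.22 with salt and −9.74 and −10.35 without, and it was at least 393-fold higher in Ler. The other 8 of the 12 brightest probes belonged to loci that carry no gene name in the tables used, with mean levels of 1.71 for AT5G11280, 1.1 for AT5G05060, 1.04 for AT1G24388, 0.72 for AT1G25211, 0.70 for AT3G47250, 0.58 for AT5G44570, 0.52 for AT4G21460 and 0.49 for AT3G62460 over the Ler arrays. All 8 were at −8.45 or lower on every Sha array but 1, on which AT4G21460 read −7.94.

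Probes named after a RefSeq mRNA made up 133 of the 200 (66.5%), against 90.9% of all probes detected on the 4 Ler arrays. Of the rest, 28 (14%, against 6.57%) were named after an EST, a cDNA or an assembled EST, and 14 (7%, against 0.774%) carried an NP entry of the array design. A further 12 (6%, against 0.903%) were named after a RefSeq non-coding RNA and 13 (6.5%, against 0.848%) had no accession at all. These shares are a description of the probes chosen. Through their accession, 124 of the 200 were matched to 117 loci, all protein coding in the table. A lookup by probe name in the authors' supplementary lists found an annotation for 15 of the 200. Among them were 10 probes of other RNA, the class that holds microRNA and natural antisense RNA, and 4 of transposable elements. The paper annotates further members by locus, such as PORA and LTP, so these counts do not describe the make-up of the 200.

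The non-coding loci had mean levels of −5.90 to −0.61 over the Ler arrays. The brightest were AT3G18535 with a mean of −0.61 over the Ler arrays and −9.64 over the Sha arrays, AT1G60525 with −1.45 and −8.93, and AT3G29644 with −1.66 and −10.16. The transposable element loci had Ler means of −3.03 for AT5G23955, −3.77 for AT3G42658, −5.31 for AT4G08680 and −5.70 for AT3G33084. These classes come from a list that the study drew up on these samples, and are not independent evidence of the difference.

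Only 22 of the 200 probes belonged to a gene with a name of its own, and they are given here by role because they are named, a choice made after their values were seen. Of 23 gene families searched by the words in gene names, 6 held a member, at most 2 in a family, and none reached 4. The word search read names only, so relatives without a telling name were not counted. A low count therefore does not show that a family is rare among the 200. ABF2 was not placed among transcription factors. AT3G44670, a member that the paper lists under biotic stress receptors, was placed in no family. By name, the NLR class held RPP5 (AT4G16950), first known from resistance of Ler to downy mildew, and WRR4 (AT1G56510), which confers resistance to white rust. They were 2 of the 25 probes with such a name that were detected on the 4 Ler arrays. RPP5 read −1.97 and −2.01 in Ler salt and −1.58 and −1.62 in Ler control leaves, against −9.46 and −10.31 in Sha salt and −9.78 and −10.42 in Sha control leaves. WRR4 read −2.54 and −2.78 in Ler salt and −3.63 and −3.58 in Ler control leaves, and no higher than −9.74 on any Sha array. A receptor-like protein, RLP50, averaged −3.76 over the Ler arrays and −9.29 over the Sha arrays.

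Besides SEH, the named enzymes included PORA (AT5G54190), which reduces protochlorophyllide in the light during chlorophyll synthesis, with −4.74 over the Ler and −10.06 over the Sha arrays. The glucosyltransferase UGT71B5 averaged −3.70 in Ler and −9.82 in Sha, and RGXT1, which adds xylose to the pectin rhamnogalacturonan II, −5.13 in Ler and −10.08 in Sha. Of 206 cytochrome P450 probes detected on the 4 Ler arrays, 2 were members, CYP71B16 at −5.57 in Ler and −9.18 in Sha, and CYP705A1 at −5.93 in Ler and −9.75 in Sha. ARI12, of a family of ubiquitin ligases, averaged −5.22 in Ler and −9.41 in Sha. Transport and membrane traffic were represented by UMAMIT44, of an amino acid transporter family (−2.55 in Ler, −10.33 in Sha), the aquaporin family member NIP4;2 (−5.18 in Ler, −9.47 in Sha), the SNARE protein VAMP728 (−4.88 in Ler, −9.75 in Sha) and the exocyst subunit EXO70H3 (−5.82 in Ler, −9.52 in Sha).

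The remaining named genes were small or regulatory proteins. CDT1 (AT1G52827, CADMIUM TOLERANCE 1), a small cysteine-rich peptide, averaged −0.43 in Ler and −9.30 in Sha. ARPC4, a subunit of the actin-nucleating complex, averaged −1.39 in Ler and −10.09 in Sha, and the lipid transfer protein gene LTP (AT2G15050) −1.84 in Ler and −10.14 in Sha. ZW9 averaged −2.32 in Ler and −9.27 in Sha, TSF (TWIN SISTER OF FT), which promotes flowering, −5.78 in Ler and −9.77 in Sha, and LURE1.5, of a family of pollen tube attractants, −5.91 in Ler and −9.87 in Sha.

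For 11 of the 189 genes a pair of different probes met the rule, and none had more. At AT1G25211 the probes averaged 0.72 and −0.79 over the Ler arrays, against −9.61 and −9.72 over the Sha arrays. At AT3G47250 they averaged 0.70 and −2.26 in Ler, against −9.24 and −10.34 in Sha. The pairs of NM_102241 (−0.71 and −1.04 in Ler, −10.37 and −9.79 in Sha), the cDNA AK118176 (−1.63 and −2.02 in Ler, −9.86 and −9.96 in Sha) and the non-coding AT1G60505 (−1.97 and −4.51 in Ler, −9.56 and −9.94 in Sha) behaved likewise. The 2 probes of a gene share its RNA and are not separate replicates.

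Member loci lay on all 5 chromosomes. Chromosome 1 held 27 of the 117 loci (23.1%, against 26.4% of the loci detected in Ler), chromosome 2 held 11 (9.40%, against 15.3%), chromosome 3 held 26 (22.2%, against 19.7%), chromosome 4 held 25 (21.4%, against 15.2%) and chromosome 5 held 28 (23.9%, against 23.4%). In the order of genes in the RefSeq table, 6 of these 117 loci formed 3 pairs of direct neighbours and no longer block. The 76 members without a matched locus had no place in this order, so neighbours among them were not counted. One of them is the non-coding AT3G18535, close in number to the member locus AT3G18530. The pairs were AT2G21840 with AT2G21850, AT5G11280 with AT5G11290, and AT5G44570 with AT5G44572, and no pair overlapped. In the first pair the levels over the Ler arrays were −2.67 and −3.54, against −9.90 and −9.92 over the Sha arrays. Allowing up to 2 genes in between gave 12 loci in 6 pairs, with AT4G01740 and RGXT1 among the added ones.

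The nearest loci on either side that were detected in Ler and were not members were mostly detected in Sha as well. Of 218 such flanking loci, 209 (95.9%) were detected on all 4 Sha arrays, against 98.3% of all 19655 loci detected in Ler. At 38 of them (17.4%) the level in Ler was more than 1 above that in Sha on the log2 scale, against 6.13% of all loci detected in Ler. Their median difference of Ler minus Sha was 0.09, against 0.03 for all of those loci.

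The rule asked for detection in Ler both with and without salt but did not use the change between them. The effect of salt in Ler leaves was tested with limma over 34658 probes, those detected on both arrays of any 1 group. A probe was called when it changed more than 2-fold with a Benjamini-Hochberg adjusted p under 0.05. After salt 61 of the 200 probes were called (30.5%), close to the 27.8% called among all tested probes and the 25.1% called among all probes detected on the 4 Ler arrays. Of these, 21 (10.5%) were raised, against 12.4% of all tested probes, and 40 (20%) were lowered, against 15.3%. The median change of the 200 was −0.19 on the log2 scale, against −0.10 for all tested probes. All 61 had salt and control arrays that did not overlap, which with 2 arrays in each group is no separate support for a call.

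The 4 groups share 1 estimate of the spread, and the Sha arrays, at background for these probes, enter it. The median SD between replicates of the 200 was 0.09 in Ler salt and 0.08 in Ler control leaves, but 0.59 in Sha salt and 0.46 in Sha control leaves. The median standard error (SE) of the salt change in Ler was 0.32, against 0.11 over all tested probes, and 0.11 in a fit of the 4 Ler arrays alone, which called 64 of the 200 and included all 61. With the normexp correction 36 were called, 17 raised and 19 lowered.

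Among the raised probes the largest change was that of the EST DY230446. It read −0.67 and −0.70 in Ler salt and −4.57 and −4.55 in Ler control leaves, a change of 3.88 (SE 0.51, 14.7-fold, limma adjusted p = 0.000922). AT2G04070 read −1.56 and −1.63 in Ler salt and −5.38 and −5.36 in Ler control leaves, a change of 3.77 (SE 0.16, adjusted p = 7.9e-06 in the limma fit). The probe A_84_P769549, which has no accession, read −2.56 and −2.71 with salt and −6.35 and −6.44 without, a change of 3.76 (SE 0.31). In each of these both salt arrays stood above both control arrays, which was a condition for naming them here. Beside the rises, 3 of the 5 pollen and seed markers were also higher with salt, namely CRU1, OLE1 at −2.46 in Ler salt and −8.61 in Ler control leaves, and 2S1 at −3.59 in Ler salt and −8.78 in Ler control leaves, each detected on 2 of the 4 Ler arrays. The pollen marker VGD1 (−7.83 in Ler salt, −6.57 in Ler control) and the LAT52-like gene (−8.77 in Ler salt, −6.05 in Ler control) were lower. The part of seed RNA in the rises was not tested. Both probes of the cDNA AK118176 rose, by 2.78 (SE 0.33) and 2.74 (SE 0.30).

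Named genes were among the raised probes. ZW9 read −1.28 and −0.89 in Ler salt and −3.66 and −3.44 in Ler control leaves, a change of 2.47 (SE 0.38, limma adjusted p = 0.00184). PORA read −3.57 and −3.47 in Ler salt and −6.08 and −5.82 in Ler control leaves, a change of 2.43 (SE 0.24, limma adjusted p = 0.000267). The EST EG508437 rose by 2.32 (SE 0.31), to −0.16 and −0.18 with salt against −2.41 and −2.57 without. UGT71B5 rose by 2.00 (SE 0.40), the non-coding AT2G22821 by 1.80 (SE 0.37) and ABF2 by 1.49 (SE 0.34, limma adjusted p = 0.00983). ABF2 was no longer called when Ler salt replicate 2 was left out, with a change of 1.40. In the fit of the 4 Ler arrays alone the SE of its change was 0.10.

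The largest fall was that of AT4G19730. It read −5.96 and −6.37 in Ler salt and −1.43 and −1.46 in Ler control leaves, a change of −4.72 (SE 0.32, limma adjusted p = 5.02e-05). AT4G12545 read −3.42 and −3.16 in Ler salt and 1.16 and 1.11 in Ler control leaves, a change of −4.42 (SE 0.29, limma adjusted p = 4.68e-05). AT1G70870 read −5.99 and −6.13 with salt and −2.79 and −2.85 without, a change of −3.23 (SE 0.18). ECS1, whose values are given above, fell by 3.19 (SE 0.27, limma adjusted p = 0.000134).

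RGXT1 read −6.50 and −6.54 in Ler salt and −3.76 and −3.73 in Ler control leaves, a change of −2.78 (SE 0.30). TSF read −6.90 and −7.01 in Ler salt and −4.62 and −4.58 in Ler control leaves, a change of −2.35 (SE 0.28) that came to −0.95 and was not called with the normexp correction. AT1G51270 fell by 2.69 (SE 0.27) and AT1G52270 by 2.56 (SE 0.17). Of the other named genes, NIP4;2 (−2.19, SE 0.41), CYP705A1 (−1.29, SE 0.28), VAMP728 (−1.24, SE 0.33) and UMAMIT44 (−1.09, SE 0.32) were lowered. The transcript NM_001036503, second in level, changed by −1.63 (SE 0.48) and was not called when any single Ler array was left out. Its change then still lay between −1.66 and −1.61. In the fit of the 4 Ler arrays alone, which leaves out the Sha background signals, the SE of this change was 0.08. Beside the falls, root markers had changes of −2.44 for CASP1, −1.91 for COBL9, −1.16 for PIN2, −0.85 for EXPA7 and −0.01 for RHD6. All 5 leaf markers were lower with salt as well, with −4.25 for CA1, −1.53 for RCA, −1.33 for GAPA, −0.97 for RBCS1A and −0.73 for LHCB1.3. The part of root and leaf RNA in the falls was not tested.

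The 2 probes placed in the NLR class by name did not pass the test. WRR4 changed by 0.94 (SE 0.34, limma adjusted p = 0.0512) and RPP5 by −0.39 (SE 0.31, limma adjusted p = 0.318). SEH changed by 0.70 (SE 0.31), CDT1 by 0.81 (SE 0.84), LTP by −1.11 (SE 0.53) and RLP50 by 1.34 (SE 0.66), and none of these was called. In all, 6 of the 200 were past 2-fold without being called, LTP and RLP50 among them.

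At 3 probes 1 Ler array stood well above the other 3. EXO70H3 read −6.73 and −3.23 in Ler salt and −6.65 and −6.68 in Ler control leaves. NM_202174 read −5.98 and −3.81 in Ler salt and −5.77 and −6.15 in Ler control leaves. The probe A_84_P172203 read −6.62 and −6.52 in Ler salt and −6.38 and −3.65 in Ler control leaves. These were the only members whose replicates lay more than 2 apart within a Ler group, and none of them was called after salt.

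The array also held other probes for some of these genes, which the rule did not choose. For 150 of the 189 genes there was no other probe. The remaining 39 had 59 other probes, of which 47 were detected on all 4 Ler arrays and 37 on all 4 Sha arrays, while 11 were detected on no Sha array. The 37 probes of 25 genes detected on all 4 Sha arrays were the same as those detected on all 8 arrays. At 22 of these (14 genes) the levels of Ler and Sha were within 2-fold of each other, at 11 (10 genes) the level was more than 2-fold higher in Ler, and at 4 (2 genes) it was more than 2-fold lower in Ler. AT1G66510 had probes of both of the first kinds. Their median difference of Ler minus Sha was 0.03. At the brightest member probe of the same genes, which Sha arrays did not detect, only a bound can be given, and it ran from at least 10.1-fold to at least 882-fold higher in Ler.

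ABF2 was one of the 14. Its other probe read 0.59 and 0.64 in Ler salt and −1.14 and −0.92 in Ler control leaves, and 1.11 and 1.15 in Sha salt and −0.76 and −0.76 in Sha control leaves. The difference of Ler minus Sha was −0.39 there, while the member probe was at least 671-fold higher in Ler. AT5G11280 had 2 other probes, with differences of −0.06 and −0.02, while its member probe was at least 882-fold higher in Ler. ZW9 differed by 0.09 at its other probe and was at least 53.6-fold higher in Ler at the member probe.

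The largest set was that of AT4G28080, with 6 other probes detected on all 8 arrays. Their differences of Ler minus Sha ran from −0.48 to 0.20, while the member probe was at least 71.1-fold higher in Ler. The brightest of the 6 read 2.15 and 1.91 in Ler salt and 3.87 and 3.61 in Ler control leaves, and 2.87 and 2.78 in Sha salt and 3.78 and 3.59 in Sha control leaves. AT5G38690 differed by −0.60 at its other probe and AT1G63855 by −0.69. Their member probes were higher in Ler by at least 138-fold for AT5G38690 and at least 12.8-fold for AT1G63855.

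At RPP5 the other probes were higher in Sha. All 3 were detected on the 8 arrays, with differences of Ler minus Sha of −4.31, −2.47 and −1.54, whereas the member probe was at least 77.7-fold higher in Ler. The first read −5.33 and −5.14 in Ler salt and −5.87 and −5.35 in Ler control leaves, and −1.03 and −1.30 in Sha salt and −0.92 and −1.21 in Sha control leaves. RPP5 belongs to a cluster of closely related resistance genes, so that RNA of a relative could be read by any of these probes, which was not tested. AT4G21460 differed by −1.40 at its other probe and was at least 387-fold higher in Ler at the member probe.

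Other genes were lower in Sha at other probes too. PORA had 2 other probes. One read −0.48 and −0.65 in Ler salt and −3.13 and −2.97 in Ler control leaves, and −6.14 and −6.23 in Sha salt and −7.20 and −7.88 in Sha control leaves, a difference of Ler minus Sha of 5.05. The other read 0.85 and 0.95 in Ler salt and −1.55 and −1.51 in Ler control leaves, and −6.39 and −5.98 in Sha salt leaves, while its Sha control signals were not well above background. At AT1G58602 the 2 other probes detected on all 8 arrays differed by 4.02 and 4.94, at AT4G11900 by 4.59, at NM_118445 by 3.73 and at LTP by 3.48. The other probe of WRR4 read −2.64 and −2.95 in Ler control leaves, against −6.75 and −7.12 in Sha control leaves, and its Sha salt signals were not well above background.

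The salt response was compared at the 37 other probes detected on all 8 arrays, a set chosen after the data were seen. In Ler 12 of the 37 were called, 4 raised and 8 lowered, against 27.8% of all tested probes. Of the 8 lowered, 6 were probes of AT4G28080, which share its RNA and are not separate replicates. In Sha 8 were called, 4 raised and 4 lowered, against 31% of all tested probes. In the fit 50 other probes passed the filter, but 13 of them were not detected on all 4 Sha arrays and are left out of these counts. Of the 37, 28 changed in Ler with the sign of the member probe. Several of them share a gene, and some changes were very small, such as −0.003 at a probe of AT3G27930. The count is therefore no measure of agreement between probes.

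The other probe of ABF2 rose in both ecotypes, with changes of 1.64 in Ler (limma adjusted p = 2.09e-05) and 1.89 in Sha (limma adjusted p = 1.04e-05) and an SE of 0.09 each. That of ZW9 rose by 2.42 in Ler and 2.04 in Sha (SE 0.10 each), that of AT1G17940 by 2.01 in Ler and 1.56 in Sha (SE 0.07 each), and that of UMAMIT44 changed by −1.52 in Ler and −1.53 in Sha (SE 0.08 each). The difference between the salt responses was called at 4 of the 37 probes, against 9.09% of all tested probes. It was called at 2 of them when any 1 Ler array, Sha control replicate 1 or Sha salt replicate 1 was left out, and at 7 with the replicate block. The largest of the 4 was at AT4G11900, which changed by −0.60 in Ler (SE 0.11) and −3.15 in Sha (SE 0.11), a difference of 2.55 (SE 0.16, limma adjusted p = 0.000728). Its Sha salt signals, −7.21 and −7.52, were near the lowest well-above-background levels of those arrays.

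All 6 other probes of AT4G28080 were lowered in Ler, with changes between −2.16 and −1.06. In Sha all 6 had negative changes as well, between −0.86 and −0.38, and none was called. The brightest of the 6 changed by −0.86 in Sha (limma adjusted p = 0.00169) and missed only the 2-fold limit. The difference between the ecotypes was called at 1 of the 6. The member probe itself had a change of −2.04 with salt in Ler (SE 0.65, limma adjusted p = 0.0345).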

How the data were processed

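Leaves of Ler and Sha seedlings were compared on 8 Agilent 1-color arrays. The authors deposited an intensity for each spot, which Agilent Feature Extraction 10.7.1.1 had corrected for background within the array, and which is not scaled between arrays. Probe sequences and a genome were not used here. Of 43603 probes other than controls, 31 with outlier spots were left out. Deposited intensities were turned to log2 and the 75th percentile of each array was subtracted. A probe on all 4 Ler and on 0 Sha arrays by the well-above-background flag was chosen, and the 200 highest in Ler were kept. The probes, lists and tests were chosen with earlier results of these data known.

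Salt comparisons were fitted as 4 groups with limma 3.58.1 in R 4.3.3, by eBayes (4 residual and 1.95 prior degrees of freedom), over the 34658 probes that both arrays of any group detected. Calls needed an adjusted p under 0.05 and more than 2-fold. The same code was tested on simulated data. Tables were made with Python 3.11.15, numpy 2.4.6 and pandas 2.3.3. Loci were named through RefSeq accessions (TAIR10.1 table), which matched 34263 of 43572 probes. "At least" folds take the higher of a Sha probe's own signal and the lowest well-above-background signal of the array.

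Genes named by rule were the 12 highest in Ler, the 8 largest called rises and 8 largest called falls with no overlap, pairs of probes, neighbouring loci, and genes with the smallest and largest difference at another probe. Alternatives were other scalings, normexp correction with an offset of 50, other filters and call limits, the 4 Ler arrays alone, blocks for replicate, slide and scan day, and each array left out. Same-numbered Ler arrays shared a slide and a scan day, and their deviations from the group mean correlated at 0.21. With 2 arrays per group, their number limits the precision of every value.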

Additional observations from a re-analysis of the deposited data

Results flagged for a closer look

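At 4 of the 37 other probes detected on all 8 arrays, limma's test of the difference itself called the salt responses of Ler and Sha different. Such a difference was called at 9.09% of all tested probes, so the count is no trait of these genes. The response in Ler minus that in Sha was 2.55 at AT4G11900 (SE 0.16), −1.32 at 1 probe of AT4G28080 (SE 0.34), 1.16 at CDT1 (SE 0.18) and 1.13 at PORA (SE 0.31), on the log2 scale. The Sha control signals of PORA, −7.20 and −7.88, were near the lowest well-above-background levels of their arrays, −7.87 and −8.57. So were the Sha salt signals of AT4G11900, −7.21 and −7.52, against −7.50 and −8.36. The part of this in the differences was not tested. CDT1 read −2.28 and −1.97 in Ler salt and −3.08 and −2.90 in Ler control leaves, and −4.20 and −4.37 in Sha salt and −3.96 and −4.01 in Sha control leaves. It stayed called in all 17 alternatives in which the difference was fitted. AT4G11900 stayed called in 16 of the 17, and with the normexp correction its difference was 0.87. The other tested probe of PORA, whose Sha control signals were not well above background, had fitted changes of 2.43 in Ler and 2.41 in Sha, and their difference of 0.02 was not called (limma adjusted p = 0.935). The PORA difference stayed called in 9 and that of AT4G28080 in 8 of the 17, with adjusted p as high as 0.132 and 0.113 (limma).

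Outliers within a group were not tested, as a group holds 2 arrays. Every slide held a salt and a control array of its ecotype, so a level shift shared by a slide drops out of these differences. With the slide as a block the 4 differences were the same and stayed called. Each ecotype had 2 slides.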

How the results depend on the processing

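The number of probes detected in Ler only was 213, and 213 to 276 under the other flag rules, with 198 of the 200 shared when they were ranked after the normexp correction. That correction, with its offset and quantile scaling together, moved several values. It gave a median Ler minus Sha difference of 2.01 in place of 5.87, 36 members called after salt in place of 61, 19 lowered in place of 40, and 4 other probes called after salt in Sha in place of 14. The cause was not tested. The counts for other probes here are over the 50 that passed the filter. Over the 37 detected on all 8 arrays, an alternative chosen after seeing the data, 12 were called in Ler and 8 in Sha, with 4 in Sha after the normexp correction. Leaving out 1 array at a time gave 11 to 12 of the 37 in Ler and 7 to 9 in Sha. A difference between the salt responses was called at 4 of the 37, at 2 to 5 with 1 array left out, at 2 with no background filter, and at 7 with the replicate block, the slide block or the scan day block. Leaving out 1 array at a time gave 45 to 63 members called, 17 to 22 raised and 28 to 41 lowered, with 14 to 16 other probes called in Ler and 14 to 17 in Sha. With the replicate block 61 members were called, 21 raised and 40 lowered, and 15 and 14 other probes in Ler and in Sha, the same counts as without it. Blocks for slide or scan day, which coincide within Ler, gave 63 members. The adjusted p limit with no fold limit gave 72 members and the unadjusted p under 0.01 with the fold limit gave 49. Adjacent member loci numbered 12, in place of 6, with up to 2 genes between them. Of 504 values for the 28 members named by level or salt change, 498 kept their call, and the 6 that lost it were those of NM_001036503, ABF2 and TSF given above. The fit of the 4 Ler arrays gives no salt value for Sha.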
